A study of Homo sapiens with 76 samples.

Results

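Apicidin and HC Toxin are cyclic tetrapeptides, small rings of 4 amino acids made by fungi, and both block histone deacetylases. They were 2 of the 29 treatments in a set of 76 cDNA samples of TK6, a lymphoblastoid line of human B cells whose p53 is functional. All samples whose agent label was apicidin or HC Toxin were taken, which gave 4 treated samples, 2 of each compound, described here with 4 vehicle samples. Apicidin was given at 1 µg/ml and set against cells that received dimethyl sulfoxide (DMSO), and HC Toxin was given at 20 ng/ml and set against cells that received methanol (MeOH). Every treated culture was exposed for 4 h. The treatments ran on 2 separate occasions, each compound was tested at 1 concentration and 1 time, and both are labelled non-DDI, meaning that they are not DNA damage-inducing. The 2 concentrations differ, so the values of the compounds stand side by side below and no test was made between them.

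Histone deacetylases remove acetyl groups from histone tails and from other proteins, and their inhibition leaves chromatin more acetylated. Both compounds carry a long side chain that reaches the zinc ion in the enzyme's pocket, which ends in an ethyl ketone in apicidin and in an epoxyketone in HC Toxin. HC Toxin is known as the host-selective toxin of the maize pathogen Cochliobolus carbonum, and apicidin was found in Fusarium. Trichostatin A, which was also given at 20 ng/ml, is a linear hydroxamic acid that binds the same zinc ion. Inhibitors of this kind are known to induce CDKN1A, the gene of the cell cycle inhibitor p21, in cells with and without p53.

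The level of an mRNA is given as −ΔCq, the mean quantification cycle (Cq) of the reference genes HPRT and GUSB minus the Cq of the gene, so a higher value means more mRNA and 1 cycle is about a doubling. A log2 fold change is the treated mean minus the vehicle mean of −ΔCq. A gene was called higher or lower where limma's adjusted p over the 61 panel genes was under 0.05. Errors of fold changes are standard errors with 2 samples in each group, from a spread pooled over all 38 conditions of the series. Of the 61 panel genes, the middle Cq in the 8 samples was 26.3, with a range of 21.6 to 38.2. The median SD between replicates was 0.09 cycles for apicidin, 0.11 for DMSO, 0.19 for HC Toxin and 0.26 for MeOH. TNFRSF17, the plasma cell receptor BCMA and the sole B lineage gene of the panel, was measured in all 8 samples, at Cq 28.07 and 27.87 in DMSO and 27.10 and 27.58 in MeOH. Since whole cultures were lysed, fewer cells of a kind and less mRNA per cell cannot be told apart.

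Features of the controls touch the values that follow. The MeOH vehicle of replicate 1 had the same Cq, to the last digit, as the ethanol vehicle of replicate 1 for 19 of 61 genes and as the acetonitrile vehicle of replicate 1 for 19, and the DMSO vehicle of replicate 2 shared 11 with the medium control of replicate 2. Over all 2850 pairs of samples the median number of equal values was 0, and no treated sample of either compound shared more than 2 with any other sample. Below, a gene counts as having a repeated vehicle Cq after 1 equal value in any other vehicle of the same replicate number. This wide rule takes in 13 genes for DMSO and 22 for MeOH, single matches among them. A second methanol control, kept for methyl methanesulfonate (MMS), differed from the MeOH control in 13 of 61 genes. GUSB stood 1.04 and 0.99 cycles above HPRT in the apicidin samples, 1.10 and 1.01 in the HC Toxin samples, 1.42 and 1.30 in DMSO and 1.27 and 1.23 in MeOH. The part of these features in the results was not tested further than by the alternatives named beside them.

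Apicidin changed 27 of 61 genes, 44.3% of the panel, with 13 higher (21.3%) and 14 lower (23.0%). HC Toxin changed 25 genes, 41.0% of the panel, with 13 higher (21.3%) and 12 lower (19.7%). The calls of the compounds ran the same way. There were 10 genes higher under both, which is 76.9% of either list of higher genes, and 12 genes lower under both, which is 85.7% of the apicidin list and all of the HC Toxin list. No gene was called in opposite directions, and 31 genes were called under neither. PTGER4, RAPGEF2, DAAM1 and ID2 were among the highest under both, and CEBPD, E2F8, COIL and TNFRSF17 were the lowest under both. The median change of the 61 genes was −0.04 for apicidin and −0.01 for HC Toxin. Scaled on the median Cq of the panel instead of the reference genes, 18 of 30 calls of apicidin and 19 of 27 of HC Toxin were higher, and the median changes were 0.19 and 0.19. With HPRT alone as reference, DDB2 and E2F7 lost their call for apicidin and TRIM22, BLOC1S2, DCP1B and E2F7 for HC Toxin, and with GUSB alone C12orf5 and USP41 did for apicidin and BTG2 and SERTAD1 for HC Toxin. With genes of repeated vehicle Cq left out, 21 of 48 genes were called for apicidin and 17 of 39 for HC Toxin.

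**Figure D1:**
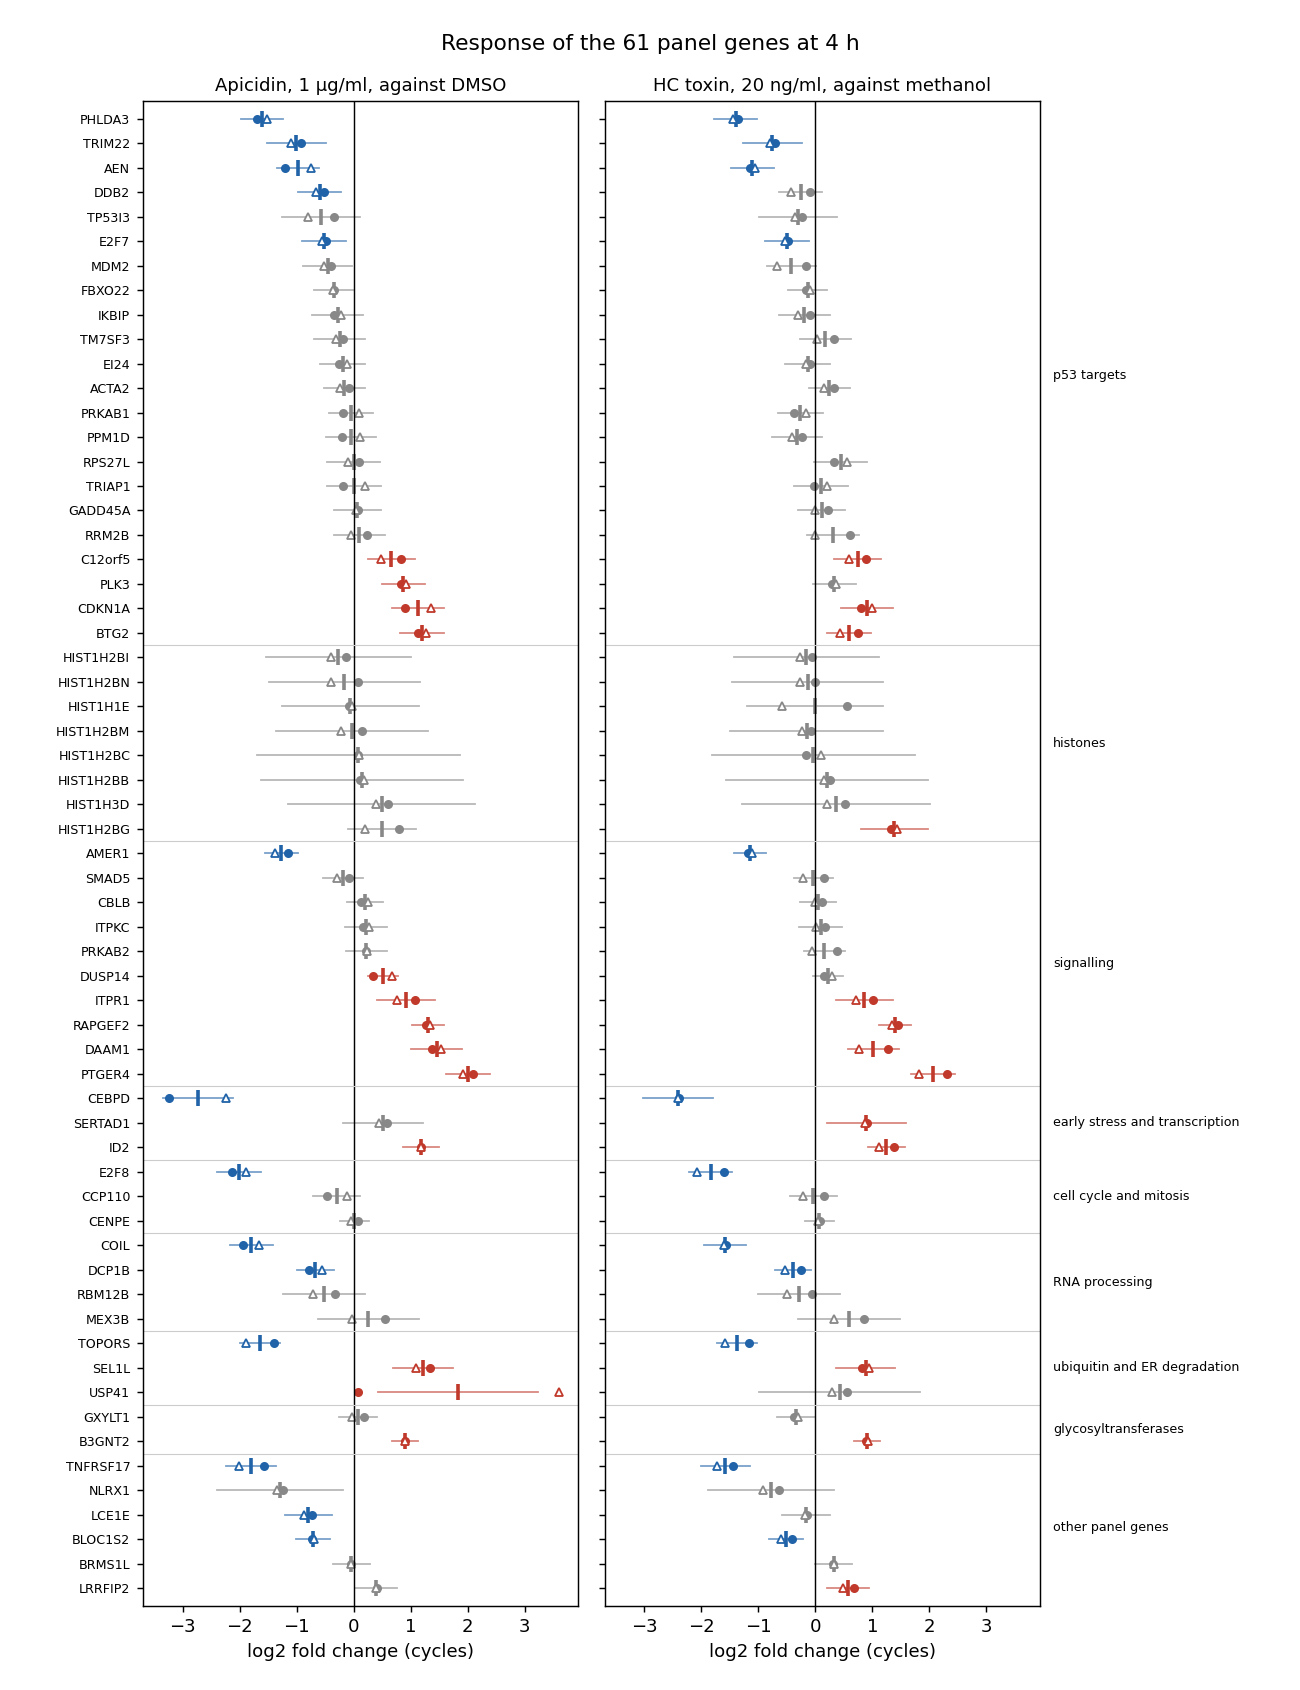
Log2 fold change in cycles (horizontal axis) of each of the 61 panel genes (rows, grouped by function) for apicidin against DMSO (left) and HC Toxin against methanol (right). Filled circles are replicate 1, open triangles replicate 2, ticks the mean of both and lines its 95% confidence interval from limma, with genes called higher in red, lower in blue and not called in grey. The blue genes of the right panel are also blue on the left, and USP41 is the gene whose apicidin replicates lie farthest apart, at 0.07 and 3.60.

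CDKN1A, which halts the cell cycle through p21, rose under both compounds. Its −ΔCq was −1.09 and −1.28 in DMSO and −0.19 and 0.08 under apicidin, a 2.18-fold rise (log2 1.13 ± 0.23 (SE), adjusted p = 5.00e-05). In MeOH it was −1.39 and −1.20, and under HC Toxin −0.58 and −0.20, a 1.87-fold rise (log2 0.90 ± 0.23 (SE), adjusted p = 0.00111). Both treated samples lay above both of their vehicle samples in each case, and the call held without each of the replicates in turn. The paper took its doses from earlier work, where viability and the size of the ATF3, GADD45A and CDKN1A responses decided them. The CDKN1A and GADD45A values are therefore not independent of the dose choice. Treated and vehicle samples did not overlap in 45 of 61 genes for apicidin (73.8%), 19 of them not called, and in 36 of 61 for HC Toxin (59%), 11 of them not called, so a gap between 2 and 2 samples was common in the panel. The stretch of DNA before the CDKN1A start is shown with those of PTGER4, which rose most among the genes higher under both, and COIL, which fell, so that the GC boxes of a rising and a falling gene can be seen. GC boxes are the letters GGGCGG on either strand (CCGCCC on the other), bound by Sp1 family factors, and Sp1 sites near the CDKN1A start are known as the route by which deacetylase inhibitors raise that gene. The 250 bases before each start are from RefSeq, build GRCh38.p14, at chr6:36678464-36678713 (+ strand) for CDKN1A, chr5:40679665-40679914 (+ strand) for PTGER4 and chr17:56961051-56961300 (− strand) for COIL, with GC boxes in capitals.
CDKN1A: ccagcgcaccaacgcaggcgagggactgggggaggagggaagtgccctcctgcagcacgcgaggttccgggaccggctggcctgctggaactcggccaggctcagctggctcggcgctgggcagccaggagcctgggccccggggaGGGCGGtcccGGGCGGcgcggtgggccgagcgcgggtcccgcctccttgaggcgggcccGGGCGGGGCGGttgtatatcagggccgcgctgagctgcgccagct
PTGER4: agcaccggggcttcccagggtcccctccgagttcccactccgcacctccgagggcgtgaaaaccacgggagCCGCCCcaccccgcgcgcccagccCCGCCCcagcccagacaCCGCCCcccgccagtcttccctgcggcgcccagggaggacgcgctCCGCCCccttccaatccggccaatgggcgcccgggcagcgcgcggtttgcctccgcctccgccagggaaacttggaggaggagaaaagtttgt
COIL: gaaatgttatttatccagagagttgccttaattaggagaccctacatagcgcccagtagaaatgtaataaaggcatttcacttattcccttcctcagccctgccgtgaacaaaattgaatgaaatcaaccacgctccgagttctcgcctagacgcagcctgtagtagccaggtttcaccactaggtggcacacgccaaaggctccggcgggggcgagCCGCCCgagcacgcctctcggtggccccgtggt
CDKN1A held 4 such matches, the last pair sharing 1 base, PTGER4 held 4 and COIL held 1. At least 1 match was found before a start for 9 of the 10 genes higher under both, and for 6 of the 7 genes lower under both that the table lists. The share was 72.9% of the 48 panel genes listed and 46.2% of all 27305 genes of the table.

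Of the 22 p53 targets of the panel, 4 were higher and 5 lower under apicidin, with a median of −0.18, beside 21.3% higher and 23.0% lower over the panel. Under HC Toxin 3 were higher and 4 lower, with a median of −0.13, beside 21.3% and 19.7% over the panel. Set against the methanol control kept for MMS, HC Toxin gave 2 higher and 12 lower p53 targets, with a median of −0.48, beside 26.2% higher and 36.1% lower over the panel. Among the genes of arrest and antiproliferation, BTG2 rose from −4.06 and −4.14 to −2.93 and −2.87 with apicidin (log2 1.20 ± 0.19 (SE), adjusted p = 7.52e-07). With HC Toxin, BTG2 rose from −3.92 and −3.90 to −3.17 and −3.47 (log2 0.59 ± 0.19 (SE), adjusted p = 0.0106), and this call was lost without HC Toxin replicate 1 (adjusted p = 0.149) or MeOH replicate 1 (adjusted p = 0.0525). PLK3, a polo-like kinase induced by stress, rose under apicidin by 0.87 on the log2 scale, while its HC Toxin value of 0.33 was not called. E2F7, a repressor of E2F target genes, fell under both, at −0.52 and −0.50, calls that were lost without Apicidin replicate 2, without DMSO replicate 1 and without any 1 of the 4 samples of HC Toxin and MeOH (adjusted p = 0.178 without Apicidin replicate 2). GADD45A, a growth arrest gene, was measured at −0.84 and −0.77 in DMSO and −0.76 and −0.73 under apicidin, and at −2.01 and −1.46 in MeOH and −1.78 and −1.46 under HC Toxin. It was called for neither (log2 0.06 ± 0.20 (SE) and 0.11 ± 0.20 (SE)).

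MDM2 and PPM1D, which hold p53 in check as a ubiquitin ligase and a phosphatase, were called under neither compound against the own vehicle. MDM2 went from −2.33 and −2.25 in DMSO to −2.72 and −2.78 with apicidin (log2 −0.46 ± 0.21 (SE), adjusted p = 0.0765), and from −2.40 and −2.42 in MeOH to −2.56 and −3.10 with HC Toxin (log2 −0.42 ± 0.21 (SE), adjusted p = 0.117). The 4 treated samples all lay below their vehicles. With the replicate number as a block the apicidin value passed the threshold (adjusted p = 0.0331), as did the HC Toxin value without HC Toxin replicate 1 (adjusted p = 0.0319). PPM1D stood at −0.04 and −0.32. Against the methanol control kept for MMS both were called lower under HC Toxin, MDM2 at −0.84 (adjusted p = 0.00125) and PPM1D at −0.53 (adjusted p = 0.0348).

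Of the p53 targets of cell death and survival, 2 of 6 fell under each compound and none rose, where 23.0% of the panel was lower under apicidin and 19.7% under HC Toxin. PHLDA3, which represses Akt signalling, fell from −1.32 and −1.34 to −3.02 and −2.87 with apicidin, 3.06-fold lower (adjusted p = 5.45e-10), and from −1.54 and −1.25 to −2.89 and −2.69 with HC Toxin, 2.63-fold lower (adjusted p = 1.68e-08). AEN, a nuclease that promotes apoptosis, fell from −1.37 and −1.63 to −2.58 and −2.39 with apicidin and from −1.69 and −1.33 to −2.83 and −2.39 with HC Toxin (log2 −0.98 ± 0.18 (SE) and −1.10 ± 0.18 (SE)). Treated and vehicle samples did not overlap for either gene. The other 4, TP53I3, TRIAP1, EI24 and IKBIP, were called under neither compound and lay between −0.58 and 0.10. Against the methanol control kept for MMS 5 of the 6 were called lower, and TRIAP1 turned from 0.10 to −0.62 (adjusted p = 0.0232).

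TRIM22, an interferon-induced ring finger protein, fell from −1.82 and −1.51 to −2.74 and −2.61 with apicidin (log2 −1.01 ± 0.26 (SE), adjusted p = 0.001). With HC Toxin it went from −2.14 and −1.61 to −2.85 and −2.40 (log2 −0.75 ± 0.26 (SE), adjusted p = 0.0153). That second call was lost without HC Toxin replicate 1 (adjusted p = 0.204) and without MeOH replicate 2 (0.243). C12orf5, now TIGAR, a phosphatase that slows glycolysis, rose under both, by 0.66 and 0.74, and lost the call without DMSO replicate 1 (adjusted p = 0.134), HC Toxin replicate 2 (0.0536) or MeOH replicate 1 (0.139). DDB2, which recognises damaged DNA in nucleotide excision repair, fell under apicidin (log2 −0.59), a call lost without DMSO replicate 2 (adjusted p = 0.0747), and stood at −0.26 under HC Toxin. The p53 targets RRM2B, PRKAB1, ACTA2, FBXO22, TM7SF3 and RPS27L were called under neither and lay between −0.35 and 0.44.

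Signalling genes held the highest values of both compounds. Of 10 genes, 5 rose and 1 fell under apicidin (median 0.37), and 4 rose and 1 fell under HC Toxin (median 0.19), against 21.3% of the panel called higher by each compound. PTGER4, the prostaglandin E2 receptor EP4 that raises cyclic AMP, went from −6.34 and −6.26 in DMSO to −4.24 and −4.35 under apicidin, 4.02-fold higher (log2 2.01 ± 0.19 (SE), adjusted p = 1.70e-11). Its MeOH samples were at −6.64 and −6.18 and its HC Toxin samples at −4.33 and −4.36, 4.18-fold higher (log2 2.06 ± 0.19 (SE), adjusted p = 1.51e-11). The 4 treated samples lay above all vehicle samples.

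RAPGEF2, an exchange factor for the small GTPase Rap, rose from −3.36 and −3.38 to −2.10 and −2.04 with apicidin (log2 1.30 ± 0.14 (SE), adjusted p = 1.39e-10) and from −4.48 and −4.15 to −3.02 and −2.81 with HC Toxin (log2 1.40 ± 0.14 (SE), adjusted p = 4.64e-11). Treated and vehicle samples did not overlap for either compound, and the MeOH samples stood under the DMSO samples. DAAM1, a formin that shapes actin downstream of Wnt, rose from −3.10 and −3.26 to −1.73 and −1.73 with apicidin, 2.74-fold, and from −3.68 and −2.96 to −2.40 and −2.20 with HC Toxin, 2.02-fold (adjusted p = 3.00e-07 and 1.58e-04). ITPR1, the inositol trisphosphate receptor that releases calcium, rose by 0.92 ± 0.25 (SE) and 0.86 ± 0.25 (SE), and lost the call without Apicidin replicate 1 (adjusted p = 0.0923), HC Toxin replicate 1 (0.141) or MeOH replicate 2 (0.0604). DUSP14, a phosphatase of MAP kinases, rose by 0.51 under apicidin, and its HC Toxin value of 0.22 was not called.

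AMER1, a scaffold of the complex that degrades β-catenin, was the signalling gene that fell. It went from −4.07 and −3.82 to −5.23 and −5.20 with apicidin (log2 −1.27 ± 0.14 (SE)) and from −3.95 and −3.90 to −5.13 and −5.01 with HC Toxin (log2 −1.15 ± 0.14 (SE)), without overlap. SMAD5, CBLB, ITPKC and PRKAB2 were called under neither and lay between −0.19 and 0.22.

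The early stress and transcription genes went in opposite directions. CEBPD, a transcription factor of the acute stress response, had the largest fall of the panel under both compounds. Its −ΔCq was −10.58 and −11.25 in DMSO and −13.82 and −13.49 under apicidin, 6.67-fold lower (log2 −2.74 ± 0.30 (SE), adjusted p = 2.78e-10). Against −11.27 and −11.33 in MeOH, HC Toxin gave −13.66 and −13.74, 5.29-fold lower (log2 −2.40 ± 0.30 (SE), adjusted p = 6.87e-09). CEBPD also gave the highest Cq of the panel in both treated groups, at 37.10 and 37.09 under apicidin and 37.39 and 38.22 under HC Toxin, late cycles at which few templates are left in a well. ID2, which blocks basic helix-loop-helix transcription factors, rose from 0.22 and 0.34 to 1.40 and 1.53 with apicidin and from −0.30 and 0.13 to 1.09 and 1.24 with HC Toxin (log2 1.18 ± 0.16 (SE) and 1.25 ± 0.16 (SE), adjusted p = 1.90e-08 and 6.87e-09). SERTAD1, a regulator of cyclin-dependent kinase 4 and E2F, was called higher for HC Toxin, from −2.25 and −1.88 to −1.33 and −0.995 (log2 0.90 ± 0.35 (SE), adjusted p = 0.0328), and lost the call without HC Toxin replicate 2 (adjusted p = 0.205) or MeOH replicate 1 (0.206). Under apicidin its value was 0.52 ± 0.35 (SE) and was not called.

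**Figure D2:**
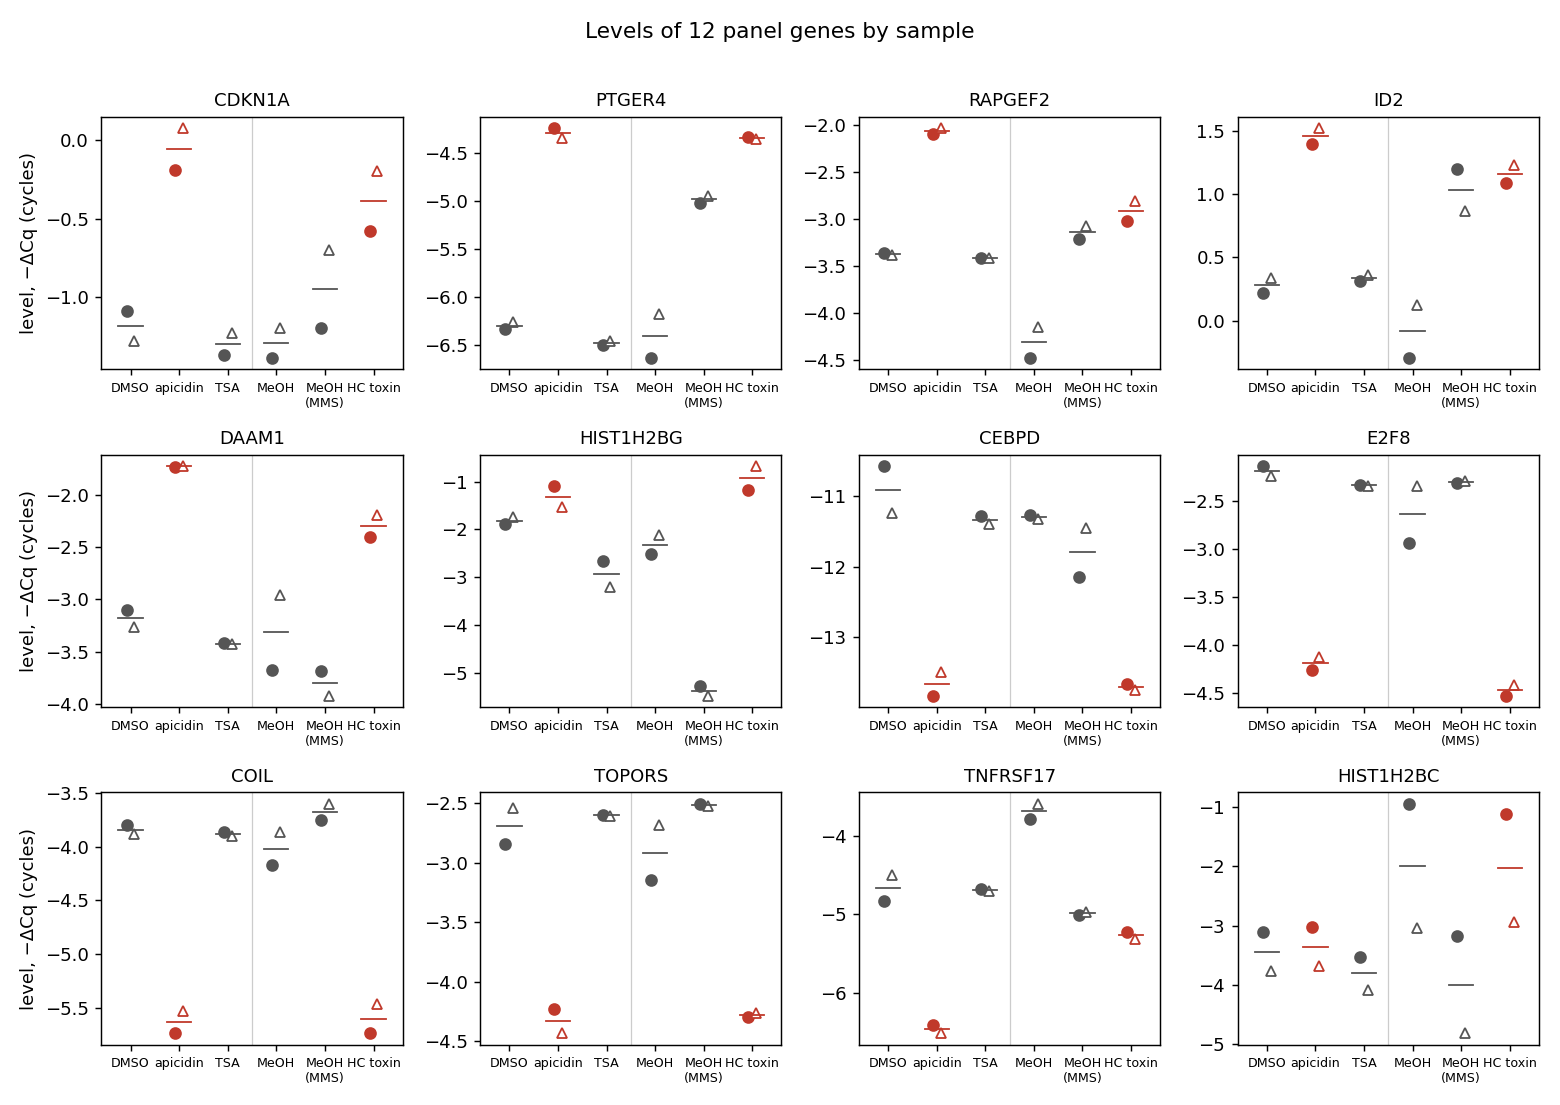
Level of 12 panel genes as −ΔCq in cycles (vertical axis, a separate scale for each gene) in the DMSO vehicle, apicidin, trichostatin A (TSA), the MeOH vehicle, the MeOH vehicle kept for MMS and HC Toxin. Filled circles are replicate 1, open triangles replicate 2 and lines the mean of both, with the tetrapeptides in red. Both red groups lie apart from both of their own vehicle samples for all genes shown except HIST1H2BC. The samples of the 2 MeOH controls lie apart for all genes shown except CDKN1A, and the difference was called for PTGER4, RAPGEF2, ID2, TNFRSF17 and HIST1H2BG.

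E2F8, an atypical E2F that represses cell cycle genes, had the second largest fall under both compounds. It went from −2.13 and −2.23 to −4.26 and −4.13 with apicidin, 4.03-fold lower (log2 −2.01 ± 0.19 (SE), adjusted p = 1.46e-11), and from −2.94 and −2.34 to −4.53 and −4.42 with HC Toxin, 3.57-fold lower (log2 −1.84 ± 0.19 (SE), adjusted p = 7.12e-11). The other genes of cell cycle and mitosis, the kinetochore motor CENPE and the centriole protein CCP110, were called under neither, between −0.30 and 0.07.

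Among the 4 genes of RNA processing, COIL and DCP1B fell under both compounds. COIL, which encodes coilin, the scaffold of Cajal bodies, fell from −3.80 and −3.88 to −5.74 and −5.54 with apicidin and from −4.18 and −3.87 to −5.74 and −5.47 with HC Toxin. These are falls of 3.48-fold and 2.99-fold (adjusted p = 7.78e-11 and 1.96e-09). DCP1B, a cofactor of mRNA decapping, stood at −0.67 ± 0.16 (SE) for apicidin and −0.39 ± 0.16 (SE) for HC Toxin, and the second call was lost without HC Toxin replicate 1 (adjusted p = 0.194), HC Toxin replicate 2 (0.0757) or MeOH replicate 2 (0.466). The RNA-binding proteins RBM12B and MEX3B were not called.

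The ubiquitin and endoplasmic reticulum genes divided. TOPORS, a ligase for ubiquitin and SUMO that binds p53, fell from −2.84 and −2.54 to −4.23 and −4.44 with apicidin and from −3.15 and −2.69 to −4.30 and −4.27 with HC Toxin (log2 −1.64 ± 0.17 (SE) and −1.37 ± 0.17 (SE)). SEL1L, the adaptor of the ligase that clears misfolded proteins from the endoplasmic reticulum, rose from −3.14 and −2.95 to −1.81 and −1.86 with apicidin and from −3.11 and −3.27 to −2.29 and −2.32 with HC Toxin, 2.32-fold and 1.84-fold (adjusted p = 1.14e-04 and 0.00481). USP41 was called higher for apicidin (log2 1.83 ± 0.70 (SE), adjusted p = 0.027), yet its levels of −8.93 and −9.21 overlapped those of −9.00 and −12.80 in DMSO. That value rests on DMSO replicate 2, since the Cq of the DMSO replicates was 32.24 and 36.17, and without it the change was −0.068. USP41 is now named USP41P and has a near-identical relative in USP18, so its assay may read more than 1 locus, and under HC Toxin its level was −8.74 and −8.31 against −9.31 and −8.60 in MeOH, which was not called.

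B3GNT2, a glycosyltransferase that builds poly-N-acetyllactosamine chains, rose under both compounds. It went from −1.17 and −1.06 to −0.27 and −0.17 with apicidin and from −1.34 and −1.23 to −0.45 and −0.30 with HC Toxin, 1.86-fold and 1.88-fold, and had the smallest standard error of the panel (0.11). GXYLT1, a xylosyltransferase that acts on Notch, was not called. TNFRSF17 fell from −4.83 and −4.50 to −6.41 and −6.52 with apicidin and from −3.79 and −3.60 to −5.22 and −5.32 with HC Toxin (log2 −1.80 ± 0.22 (SE) and −1.58 ± 0.22 (SE), adjusted p = 1.66e-09 and 3.44e-08). BLOC1S2, a subunit of a complex that positions lysosome-related organelles, fell under both (log2 −0.72 and −0.51), the second of which was not called without MeOH replicate 2 (adjusted p = 0.105). LCE1E, a gene of the cornified envelope of skin, fell under apicidin (log2 −0.80) and stood at −0.16 under HC Toxin.

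NLRX1, a mitochondrial member of the NOD-like receptors, had lower values in all treated samples than in their vehicles. It went from −2.83 and −2.58 to −4.07 and −3.93 with apicidin and from −3.28 and −2.67 to −3.91 and −3.59 with HC Toxin, but its error was large over the 76 samples and it was not called (log2 −1.29 ± 0.55 (SE), adjusted p = 0.0511, and −0.78 ± 0.55 (SE), adjusted p = 0.298). Fitted on the 4 apicidin and DMSO samples alone, it passed (adjusted p = 4.17e-04), as it did with the replicate number as a block (0.00274). LRRFIP2, a Toll-like receptor pathway protein, was called higher for HC Toxin at 0.58 ± 0.18 (SE), a call lost without HC Toxin replicate 2 (adjusted p = 0.0757) or MeOH replicate 1 (0.155). Under apicidin it stood at 0.40 ± 0.18 (SE), which passed with the replicate number as a block (adjusted p = 0.0339). BRMS1L, a subunit of the SIN3A deacetylase complex and so the panel's nearest gene to the drug target, was called for neither compound (−0.04 ± 0.16 (SE) and 0.32 ± 0.16 (SE)).

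The histone genes of the panel, which encode the replication-dependent histones whose deacetylation both compounds block, were with 1 exception not called against their own vehicles. None of 8 was called by limma for apicidin, nor had any an unadjusted p under 0.05 (median 0.03), and HIST1H2BG alone was called for HC Toxin (median −0.02). HIST1H2BG was −1.89 and −1.74 in DMSO and −1.10 and −1.54 under apicidin (log2 0.50 ± 0.29 (SE), adjusted p = 0.177). In MeOH it was −2.52 and −2.12 and under HC Toxin −1.18 and −0.68, 2.62-fold higher (log2 1.39 ± 0.29 (SE), adjusted p = 1.17e-04).

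The other 7 histone genes were called under neither compound, and in both MeOH and HC Toxin replicate 1 was above replicate 2 for all 7. HIST1H2BC was −3.11 and −3.77 in DMSO, −3.03 and −3.69 under apicidin, −0.95 and −3.04 in MeOH and −1.11 and −2.94 under HC Toxin. HIST1H2BB was −1.78 and −2.34 in DMSO, −1.67 and −2.17 under apicidin, 0.26 and −1.26 in MeOH and 0.51 and −1.11 under HC Toxin. Replicate 1 was the higher of the pair in all 4 groups for these genes. In the same order, HIST1H1E gave 1.62 and 0.86, then 1.53 and 0.84, 1.495 and 1.37 and 2.06 and 0.79. HIST1H2BI gave −2.06 and −2.31, then −2.19 and −2.72, −0.42 and −1.43 and −0.47 and −1.69. Neither shows treated samples apart from vehicle samples. HIST1H2BM gave −1.72 and −1.72, then −1.57 and −1.94, 0.37 and −1.12 and 0.29 and −1.35. HIST1H2BN gave −3.28 and −3.20, then −3.21 and −3.60, −1.33 and −2.35 and −1.33 and −2.61. HIST1H3D gave −1.32 and −1.57, then −0.72 and −1.19, 0.97 and −0.38 and 1.48 and −0.17. The fitted changes of these 7 genes lay between −0.27 and 0.49 with standard errors of 0.59 to 0.88. In that fit, which did not pair replicates, a doubling lay within 2 standard errors of 0. Taken by replicate, the changes of HIST1H2BC were smaller, 0.08 and 0.085 with apicidin and −0.165 and 0.10 with HC Toxin. Those of HIST1H2BB were 0.11 and 0.175, then 0.255 and 0.15. HIST1H1E gave 0.565 and −0.58 under HC Toxin, and HIST1H3D gave 0.60 and 0.385 under apicidin. Of the 7 genes, HIST1H3D was the one whose apicidin samples lay apart from DMSO.

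HC Toxin was set against the methanol control not kept for MMS, and the choice between the 2 methanol controls moved part of its result. Against the control kept for MMS, HC Toxin changed 38 of 61 genes (62.3%), with 16 higher (26.2%) and 22 lower (36.1%), and 21 of the 25 calls were made against both controls in the same direction. The falls of CEBPD, E2F8, COIL, TOPORS, PHLDA3, AMER1 and AEN and the rises of CDKN1A, B3GNT2, DAAM1, SEL1L and PTGER4 were called against both. For PTGER4 the change was 2.06 against MeOH and 0.64 against the other control on the log2 scale. RAPGEF2, ID2, TNFRSF17 and C12orf5 were called against MeOH and not against the other control, where their changes were 0.23, 0.13, −0.28 and 0.11.

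The methanol controls themselves differed in 13 of 61 genes (21.3%), 5 higher (8.20%) and 8 lower (13.1%) in MeOH than in MeOH for MMS. Without MeOH replicate 1 the count was 8, and without MeOH replicate 2 it was 23, 7 higher and 16 lower. The split was 7 higher of 12 with HPRT alone and 4 higher of 26 with GUSB alone. HIST1H2BG differed most, at −2.52 and −2.12 in MeOH and −5.28 and −5.47 in the other (log2 3.06 ± 0.29 (SE)), so that the HC Toxin change of HIST1H2BG was 4.45 against the second control. Of the other histones, 6 passed the threshold against the second control, between 1.34 and 2.55. ID2 stood at −0.30 and 0.13 in MeOH and at 1.21 and 0.87 in MeOH for MMS, which overlapped its HC Toxin samples. RAPGEF2 was −4.48 and −4.15 and −3.22 and −3.07, PTGER4 was −6.64 and −6.18 and −5.02 and −4.95, and TNFRSF17 was −3.79 and −3.60 and −5.01 and −4.97 in the same order. Of these, PTGER4, RAPGEF2 and TNFRSF17 are also among the genes whose Cq in MeOH replicate 1 was repeated in other vehicles, and without that replicate their HC Toxin changes were 1.83, 1.23 and −1.67 and still called.

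**Figure D3:**
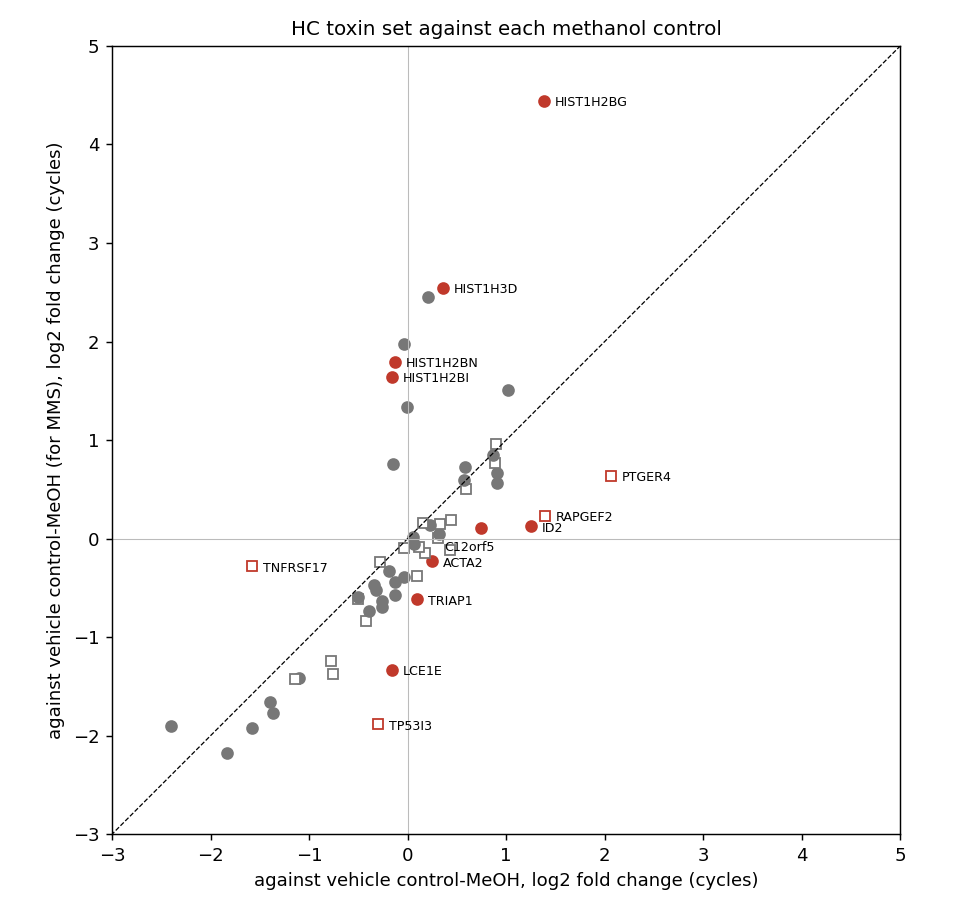
Log2 fold change of HC Toxin in cycles against the MeOH control (horizontal axis) and against the MeOH control kept for MMS (vertical axis) for 61 panel genes, with the dashed line where both are equal. Red and named genes are the 13 that differed between the 2 controls, and open squares are genes whose Cq in the MeOH control was repeated in another vehicle. Genes near the lower left corner lie close to the line, while HIST1H2BG lies above it and PTGER4, RAPGEF2 and ID2 lie under it.

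HC Toxin and trichostatin A were the pair of deacetylase inhibitors of different structure given at the same mass concentration, 20 ng/ml, and 1 such pair was compared. At that concentration HC Toxin moved the panel and trichostatin A did so in 1 gene. Trichostatin A changed 1 of 61 genes (1.64%), HIST1H2BG, and PTGER4, CDKN1A, E2F8 and COIL gave log2 changes of −0.18, −0.11, −0.15 and −0.04. The difference of the responses, each against its own vehicle, passed the test in 16 of 61 genes (26.2%), with 8 higher (13.1%) and 8 lower (13.1%) under HC Toxin.

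The differences higher under HC Toxin were led by HIST1H2BG at 2.50 ± 0.41 (SE) and PTGER4 at 2.25 ± 0.27 (SE) (adjusted p = 4.47e-06 and 2.31e-08). HIST1H2BG fell under trichostatin A, from −1.89 and −1.74 in DMSO to −2.66 and −3.20, and rose under HC Toxin. RAPGEF2 followed at 1.44 ± 0.20 (SE), DAAM1 at 1.26 ± 0.31 (SE), ID2 at 1.19 ± 0.22 (SE) and CDKN1A at 1.02 ± 0.32 (SE), the last with an adjusted p of 0.0118. The trichostatin A samples of CDKN1A, at −1.37 and −1.23, overlapped the DMSO samples. B3GNT2 and ITPR1 were the other genes called higher.

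The differences lower under HC Toxin were led by CEBPD at −1.98 ± 0.43 (SE) and E2F8 at −1.69 ± 0.27 (SE) (adjusted p = 2.02e-04 and 3.27e-06), then TNFRSF17 at −1.55 ± 0.30 (SE), COIL at −1.54 ± 0.26 (SE), TOPORS at −1.46 ± 0.25 (SE) and PHLDA3 at −1.29 ± 0.26 (SE). AMER1 and AEN completed the list. HIST1H2BG, CDKN1A, PHLDA3 and TOPORS are among the genes whose Cq in DMSO was repeated in another vehicle. CDKN1A is not among the 11 that DMSO replicate 2 shared with the medium control. PTGER4, RAPGEF2, TNFRSF17 and AMER1 are among those of MeOH. With such genes left out, the differences of DAAM1, ID2, CEBPD, E2F8 and COIL were still called. Under trichostatin A, E2F8 was −2.33 and −2.34, COIL −3.87 and −3.90 and TOPORS −2.60 and −2.61, against the DMSO levels given above. For BTG2 the difference was 0.66 with a 95% interval of 0.12 to 1.20, for SEL1L 0.85 (interval 0.10 to 1.59), for MDM2 −0.43 (interval −1.04 to 0.18) and for GADD45A 0.18 (interval −0.40 to 0.76), none of which passed, and the intervals of BTG2, SEL1L and MDM2 leave room for a difference of a doubling or a halving. The vehicles of the pair differ, and with MeOH for MMS as the vehicle of HC Toxin 12 of the 16 calls were made in the same direction, while CDKN1A (adjusted p = 0.0916), RAPGEF2, ID2 and TNFRSF17 were not called. With that vehicle the difference was 5.56 for HIST1H2BG, 0.82 for PTGER4, 0.27 for RAPGEF2, 0.068 for ID2 and −0.25 for TNFRSF17. CDKN1A was also not called without HC Toxin replicate 2 (adjusted p = 0.0889), MeOH replicate 1 (0.053) or DMSO replicate 1 (0.0566).

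**Figure D4:**
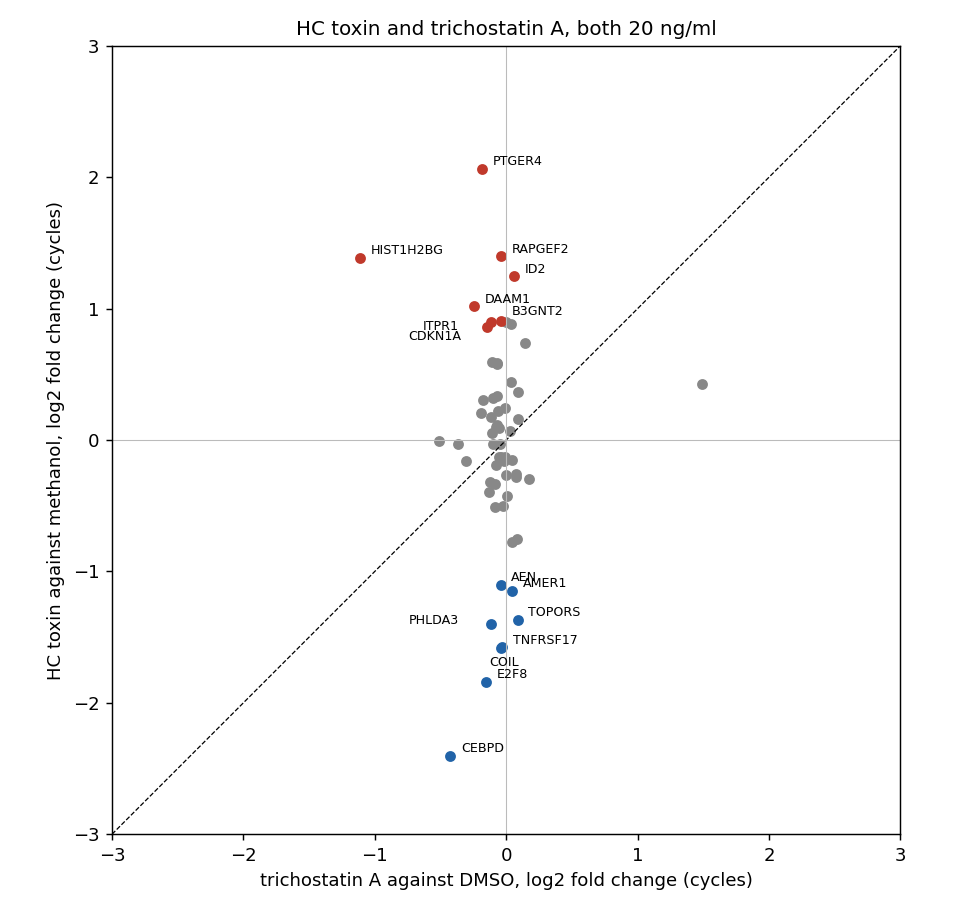
Log2 fold change in cycles of 61 panel genes under trichostatin A against DMSO (horizontal axis) and under HC Toxin against methanol (vertical axis), both at 20 ng/ml, each point the mean of 2 replicates. Genes with a called difference between the responses are red (8 higher under HC Toxin) or blue (8 lower) and named, and the dashed line marks equal responses. Most points stand in a column near 0 on the horizontal axis, HIST1H2BG lies to the left of it and USP41 to the right.

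Oxamflatin, another linear hydroxamic acid, was given at 1 µM and set against the same DMSO samples as apicidin. Its dose differs from those of the tetrapeptides, so its values are given beside theirs with no test between them. Oxamflatin changed 25 of 61 genes (41.0%), with 13 higher (21.3%) and 12 lower (19.7%). PTGER4 was −4.26 and −4.39 under oxamflatin, a log2 change of 1.98 ± 0.19 (SE), beside 2.01 for apicidin and 2.06 for HC Toxin. COIL was −5.79 and −5.75, a change of −1.93 ± 0.19 (SE) beside −1.80 and −1.58 in the same order. CDKN1A was −0.66 and −0.62, a change of 0.55 ± 0.23 (SE), adjusted p = 0.0494, beside 1.13 and 0.90. These genes had the same direction under all 3 compounds. By Euclidean distance over the 61 log2 changes, oxamflatin lay 2.16 from apicidin and 2.27 from HC Toxin. The tetrapeptides lay 2.64 from each other, so the likeness of their profiles was not particular to them. CEBPD gave −2.80 ± 0.30 (SE) under oxamflatin, E2F8 −2.01 ± 0.19 (SE), TNFRSF17 −1.49 ± 0.22 (SE), PHLDA3 −1.50 ± 0.18 (SE) and TOPORS −1.22 ± 0.17 (SE). RAPGEF2 gave 1.15 ± 0.14 (SE), DAAM1 1.25 ± 0.22 (SE), ID2 0.77 ± 0.16 (SE) and HIST1H2BG 0.85 ± 0.29 (SE). All of these were called under oxamflatin, whereas MDM2 was not, at −0.03 ± 0.21 (SE).

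Within the series the tetrapeptides were compared with the other non-DDI treatments and with the DDI treatments, each treatment counted once by its mean log2 fold change against its own vehicle. The remaining deacetylase inhibitors, trichostatin A and oxamflatin, were left out, which gave 2 against 11 and 2 against 14 treatments. The panel was chosen in earlier work on TK6 cells for telling DDI from non-DDI reference agents, apicidin and HC Toxin among them, and treatments that share a vehicle share its samples, so these tests describe the panel and are not independent evidence of class. Apicidin and HC Toxin gave 27 and 25 called genes where the 11 others gave 0 to 32 (median 15) and the 14 DDI treatments 4 to 50 (median 39.5).

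Against the 11 other non-DDI treatments, 10 of 61 genes differed (16.4%), with 2 higher (3.28%) and 8 lower (13.1%). With genes of repeated vehicle Cq left out, 4 of 27 differed, 0 higher and 4 lower. CDKN1A and HIST1H2BG, the 2 genes higher, were among those left out, CDKN1A by a match outside the run shared by DMSO and the medium control. With HPRT alone, 3 of 9 were higher, and with 1 compound in place of both limma called 3 (HC Toxin) and 2 (apicidin). CDKN1A, whose response had a part in the choice of doses, was higher. Its mean was 1.02 under the tetrapeptides and its range −0.53 to 0.29 in the others (difference 1.07 ± 0.26 (SE), adjusted p = 0.00814). HIST1H2BG was the other gene higher, at 2.87 ± 0.75 (SE), where 10 of the 11 others lay below 0 (mean −1.93). The genes lower were led by CEBPD at −2.12 ± 0.35 (SE), COIL at −1.79 ± 0.31 (SE) and E2F8 at −1.72 ± 0.39 (SE), followed by PHLDA3 at −1.38 ± 0.45 (SE) and TOPORS at −1.38 ± 0.32 (SE). In COIL, the 11 others ran from −0.82 under thapsigargin to 0.86 under 2-deoxyglucose, against −1.80 and −1.58 for the tetrapeptides. AEN, NLRX1 and BLOC1S2 were lower too. PHLDA3 was not called with HPRT alone (adjusted p = 0.102) or without replicate 1 of all treatments (0.0691). Both compounds lay outside the range of the 11 others for all 10 genes. Since the 10 were selected by their difference from these same treatments, that adds no further support. PTGER4, RAPGEF2 and ID2 were not called here.

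Against the 14 DDI treatments, 22 of 61 genes differed (36.1%), with 6 higher (9.84%) and 16 lower (26.2%) under the tetrapeptides. With HC Toxin or apicidin alone in place of both, limma called 0, with 18 and 19 genes at an unadjusted p under 0.05. Scaled on the median Cq of the panel, 10 of 19 were higher, and the median difference of all genes moved from −0.63 to 0.02. The p53 targets gave 7 of 22 lower and 0 higher, with a median difference of −1.04 against −0.63 over the panel. PHLDA3 differed most, at −1.51 under the tetrapeptides and 2.21 ± 1.09 (SD, n = 14 treatments) under DDI agents, a difference of −3.71 ± 0.71 (SE) (adjusted p = 0.00194). LCE1E (−2.64 ± 1.02 (SE)), E2F8 (−2.39 ± 0.54 (SE)), CEBPD (−2.24 ± 0.57 (SE)) and AEN (−2.13 ± 0.48 (SE)) came next, and LCE1E was not called with HPRT alone (adjusted p = 0.0569), without replicate 2 of all treatments (0.0574), on the panel median (0.0991), with the mean of all 9 vehicles (0.102) or without the treatments set against water (0.0687). CEBPD was not called on the panel median (0.0673).

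Higher than under DDI agents were PTGER4 (2.89 ± 0.74 (SE)), RAPGEF2 (2.43 ± 0.63 (SE)), B3GNT2 (1.99 ± 0.63 (SE)), DAAM1 (1.94 ± 0.55 (SE)), ID2 (1.94 ± 0.55 (SE)) and ITPR1. With the mean of all 9 vehicles for every treatment the difference was 1.78 for PTGER4 and 1.19 for B3GNT2, and without the treatments set against water it was 1.32 for B3GNT2. For PTGER4 the DDI values ran from −2.21 under hydroxyurea to 1.41 under NaAsO2. CDKN1A was not called between the groups, at a mean of 1.02 under the tetrapeptides and 1.97 ± 1.18 (SD, n = 14 treatments) under DDI agents (adjusted p = 0.318). GADD45A and BTG2 were not called either (adjusted p = 0.522 and 0.179). Placed among the 26 treatments other than the tetrapeptides and oxamflatin, both compounds lay below all 26 for 10 of 61 genes and above all 26 for 1. They lay below all 26 for 9 of the 12 genes they lowered in common, namely AEN, BLOC1S2, CEBPD, COIL, E2F8, PHLDA3, TNFRSF17, TOPORS and TRIM22, and above all 26 for 1 of the 10 they raised, PTGER4. The tenth gene below all 26 was MDM2. These places hold for HC Toxin set against MeOH. Against MeOH for MMS its PTGER4 change was 0.64, below the value of NaAsO2. TNFRSF17 was −0.28 there and not called, and CEBPD was −1.90. AEN, BLOC1S2, COIL, E2F8, MDM2, PHLDA3, TOPORS and TRIM22 lay further below 0 there than against MeOH. With oxamflatin counted among the others and MeOH as the vehicle of HC Toxin, both compounds lay lowest for 4 of the 12, AEN, TNFRSF17, TOPORS and TRIM22. They lay highest for 1 of the 10, PTGER4. For each of these genes the oxamflatin value was within its standard error of the nearer tetrapeptide. AEN gave −0.91 ± 0.18 (SE) beside −0.98 under apicidin, and TRIM22 gave −0.70 ± 0.26 (SE) beside −0.75 under HC Toxin.

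**Figure D5:**
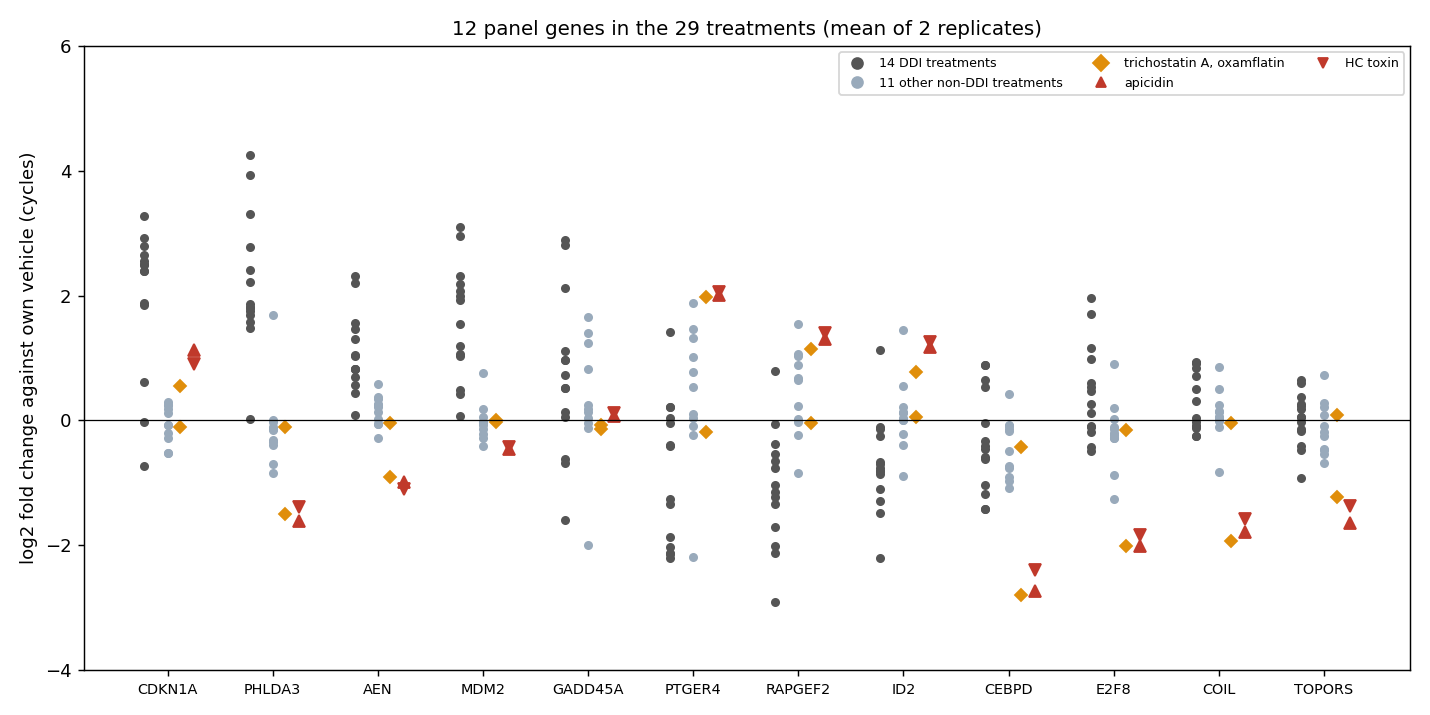
Log2 fold change against the own vehicle in cycles (vertical axis) of 12 panel genes (horizontal axis) in the 29 treatments, each point the mean of 2 replicates. Dark grey points are the 14 DDI treatments, light points the 11 other non-DDI treatments, orange diamonds trichostatin A and oxamflatin, and red triangles apicidin (up) and HC Toxin (down). For CEBPD, E2F8, COIL and TOPORS the red triangles lie under all grey points, and for CDKN1A they lie above the light points and among the dark ones.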

How the data were processed

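The deposited matrix holds the Cq values that the authors measured by TaqMan RT-qPCR, 1 value for each of 61 panel genes and the reference genes HPRT and GUSB in 76 samples. The authors' fold changes hold their own comparisons and were not used. The depth of qPCR is the Cq itself, and all 61 genes gave a Cq in all samples used. The authors had already excluded ARRDC4, PCDH8 and SEMG2, whose Cq was above 40 in most samples.

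From these, −ΔCq was computed and modelled in limma 3.58.1 (R 4.3.3) by 1 coefficient for each of 38 conditions over all 76 samples (38 residual degrees of freedom) and Benjamini-Hochberg adjustment over 61 genes. For classes, limma was run on each treatment's mean change. The fit was tested on simulated data. Groups came from the sample labels. The p-values of the main fit rest on the spread between 2 cultures of a condition, pooled over the 38 conditions. Those of the class comparisons rest on the spread between treatments. Replicate numbers paired samples in the changes by replicate and in the block, since the authors ran agents and solvents on 2 occasions. Their fold changes also divide samples of equal number. The main fit, from which the calls and standard errors of the compounds come, did not pair samples, and the block was an alternative to it. The deviations of a treated replicate and its vehicle correlated over genes at 0.235 for apicidin and 0.906 for HC Toxin, and above 0.1 in 19 of 29 treatments.

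The compounds, gene lists and named genes were chosen with earlier results of these data known. Genes given by sample are CDKN1A, MDM2, GADD45A, BTG2, TNFRSF17, all histones and the 8 highest and 8 lowest called genes of each compound whose replicates had the same sign, and other genes given by sample (NLRX1) were added after their values were seen. For trichostatin A the 6 largest called differences in each direction were named, and for the classes the 5 largest. Alternatives were the reference gene, the vehicle, the block, left-out samples and genes, the adjustment and the samples in the fit. Of the 61 symbols, 58 were matched to RefSeq, and 48 had a promoter sequence there. Figures were drawn with matplotlib 3.10.9.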

Additional observations from a re-analysis of the deposited data

How the results depend on the processing

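Calls for apicidin stood at 23 to 33 in all alternatives but the one without genes of repeated vehicle Cq (21), against 27, and those for HC Toxin at 25 moved to 15 with its 4 samples alone, 16 with Holm adjustment and 38 with MeOH for MMS as vehicle. Leaving out 1 sample gave 25 for apicidin each time, 20 to 22 for HC Toxin, 15 to 17 for its difference from trichostatin A and 8 to 23 for the methanol controls, and leaving out a replicate of all treatments gave 9 to 10 against other non-DDI and 20 to 25 against DDI treatments. Of the calls, 22 of 27 and 16 of 25 held without each sample in turn. The replicate block gave 31 calls for apicidin, 26 for HC Toxin, 20 for the difference from trichostatin A and 21 between the methanol controls, and GUSB alone gave 26 there. The difference from trichostatin A gave 30 calls with no vehicle subtracted and 9 of 27 genes without repeated vehicle Cq, an alternative added after the data were seen for this and the class comparisons.

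Against other non-DDI treatments the 10 calls became 17 with the mean of all 9 vehicles, 3 without Apicidin, 2 without HC Toxin and 4 without genes of repeated Cq. Against DDI treatments the 22 became 0 without Apicidin and 0 without HC Toxin, with 1 treatment left for the pair. They became 9 without genes of repeated Cq, with 27 genes tested. The cause of these drops was not tested. In limma, 18 and 19 genes had an unadjusted p under 0.05 without Apicidin and without HC Toxin. Signs turned for USP41 under apicidin without DMSO replicate 2 (−0.068, and 3.73 without DMSO replicate 1), for GADD45A under HC Toxin with the mean of all 9 vehicles (−0.37, called) and, with MeOH for MMS, for TRIAP1 (−0.62), HIST1H1E (1.34), HIST1H2BC (1.98), HIST1H2BI (1.65) and HIST1H2BN (1.80). The cause was not tested. With 2 samples a group, the smallest change called for either compound was −0.39, for DCP1B under HC Toxin.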
